A study of Mus musculus with 4 samples.

Results

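Tumor-associated macrophages (TAMs) are described here in 20967 melanomas, as the 766 of 4108 sequenced CD45+ leukocytes that the authors' cell table named TAM. Control tumors held 723 of these among 3803 recovered cells and glucocorticoid-treated tumors held 43 among 305. The control channel had been loaded with 17100 cells and the treated one with 3500, so the counts of TAMs are not a measure of their loss. The 20967 line was made from mice of the Nras+LSL-G12D;Tyr::CreERT2+/o background on C57BL/6, in which Cre recombinase under the tyrosinase promoter switches on oncogenic Nras in melanocytes. It is a single line, and both groups received it as an intradermal graft in wild-type C57BL/6 hosts, so the macrophages and all other leukocytes came from the host and carried neither allele. In the control group 5 mice received a control preparation, and in the glucocorticoid (GC) group 5 mice received clobetasol propionate, a potent synthetic GC, on the skin over the tumor. The age of the mice is not given in the sources used here. Tumors were taken 4 days after treatment. Each tumor was marked with its own hashtag antibody, the 5 tumors of a group were pooled, and live CD45+ cells of each pool were run in 1 droplet channel for 3' RNA sequencing. Treatment and channel thus coincide, and cannot be told apart.

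Macrophages in tumors derive largely from blood monocytes, which lose monocyte genes such as Ly6c2 after they enter tissue. Differentiated macrophages take up dying cells and debris, make the complement subunits C1qa, C1qb and C1qc and the lipid carrier Apoe, and present antigen on MHC class II. GCs bind the GC receptor, encoded by Nr3c1, which then binds DNA and raises a set of genes shared by many cell types, among them Fkbp5, Tsc22d3, Klf9 and Dusp1, while it lowers many inflammatory genes.

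TAMs of the 5 control tumors (replicates 1 to 5) numbered 198, 184, 166, 100 and 75 cells, and together held 9330075 unique molecular identifiers (UMIs), each of which counts 1 captured RNA molecule. GC tumors 1 to 5 held 0, 17, 16, 3 and 7 TAMs with 766906 UMIs in all. Levels are given as UMIs per 10000 UMIs of a tumor's summed TAMs. Only GC tumors 2 and 3 reached the 10 TAMs required for a test, with 264016 and 316303 UMIs against 979536 to 2528383 in control tumors. The values of GC tumors 4 and 5 are given beside them and entered no test. The median TAM held 12883 UMIs and 3516 genes in controls and 17855 UMIs and 3907 genes after GC, so the treated cells were the deeper ones. Mitochondrial RNA made up 1.74% of UMIs in the median control TAM and 1.40% in the median GC TAM. No cell barcode was shared by the channels.

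The regions upstream of Chil3 and St7 are shown because these were the genes named below among the largest rises whose upstream window held a motif of the GC receptor. The receptor binds as a pair of subunits to an inverted repeat whose core, written ACANNNTGT, is marked in capitals. This core is its own reverse complement, so a match on one strand is a match on both. The 250 bases before the transcription start are from RefSeq on GRCm38.p6, written 5′ to 3′ on the strand of the gene. Chil3 lies on the minus strand at chr3:106167565-106167814 for this window, and St7 on the plus strand at chr6:17693744-17693993, inside the gene as GENCODE annotates it.
Chil3: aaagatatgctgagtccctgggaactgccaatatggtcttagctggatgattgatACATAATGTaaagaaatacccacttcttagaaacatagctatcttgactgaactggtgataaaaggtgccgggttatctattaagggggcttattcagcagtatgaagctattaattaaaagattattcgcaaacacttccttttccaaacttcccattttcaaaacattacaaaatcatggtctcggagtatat
St7: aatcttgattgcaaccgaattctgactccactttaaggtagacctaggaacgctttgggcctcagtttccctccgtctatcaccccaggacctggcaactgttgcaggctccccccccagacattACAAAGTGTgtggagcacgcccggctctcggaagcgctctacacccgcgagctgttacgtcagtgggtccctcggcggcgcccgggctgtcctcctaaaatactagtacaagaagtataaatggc
The core occurred in 5.84% of 32851 promoter windows of this length and in 3.85% of the 4829 genes tested in TAMs that had a window. Of the genes that passed the test after GC, 4 of 55 higher genes with a window held it (7.27%), and 5 of 88 lower genes did (5.68%). With so short a motif these matches are a description of the letters, and not of binding.

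The first question was how TAMs differed from the 3 clusters named Monocytes 1, 2 and 3. Because the clusters were made from the same genes, the levels below are a description with no test, from control tumors only. TAMs carried the complement and lipid genes that mark macrophages, and Monocytes 1 and 2 carried them at far lower levels. In TAMs, C1qa stood at 9.27, 13.7, 11.3, 10.6 and 13.9 UMIs per 10000 in the 5 control tumors. In Monocytes 1 it was between 1.57 and 4.04 in the 4 tumors with at least 10 cells, and in Monocytes 2 between 0.042 and 0.231 in 5 tumors. No TAM value overlapped those of either monocyte cluster. C1qb, which encodes another chain of the same protein, averaged 7.60 ± 1.06 (SD, n = 5) in TAMs, 2.41 ± 0.616 (SD, n = 4) in Monocytes 1 and 0.0717 ± 0.0535 (SD, n = 5) in Monocytes 2. Apoe averaged 36.2 ± 6.89 in TAMs, 10.6 ± 2.84 in Monocytes 1 and 5.90 ± 3.15 in Monocytes 2.

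Monocytes 3 was close to TAMs in these genes. This cluster held 22 control cells, with at most 7 in any tumor, so only their pooled level is given. It carried C1qa at 10.3, C1qb at 6.54, C1qc at 5.92 and Apoe at 38.8 UMIs per 10000, against pooled TAM levels of 11.6, 7.49, 6.51 and 35.2. Trem2, a lipid-sensing receptor of macrophages, was at 1.14 in Monocytes 3 and 1.12 in TAMs. A C1q UMI was found in 81.8% of Monocytes 3 cells, 71.5% of TAMs, 44.1% of Monocytes 1 and 30.2% of Monocytes 2, at median depths of 13051, 12883, 12410 and 12800 UMIs. By its C1q, Apoe and Trem2, the cluster named Monocytes 3 thus stood with TAMs and not with the other monocytes.

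Adgre1, which encodes the macrophage surface protein F4/80, did not single out TAMs. It stood at 1.00, 1.06, 0.864, 1.30 and 0.990 UMIs per 10000 in TAMs and at 1.73 to 2.40 in Monocytes 2. Monocytes 1 had 0.399 to 0.752. Of the 4 genes, C1qa, C1qb and Apoe set TAMs apart from Monocytes 1 and 2 but not from Monocytes 3, and Adgre1 did not set them apart from Monocytes 2 or 3. The sum of C1qa, C1qb, Apoe and Adgre1 was 55.3 UMIs per 10000 in TAMs, 15.6 in Monocytes 1, 8.29 in Monocytes 2 and 56.6 in Monocytes 3. TAMs thus exceeded the mean of the 3 monocyte clusters by 1.04 on the log2 scale. The log2 level of the sum in TAMs, and not this ratio, had an SD of 0.238 over control tumors.

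**Figure D1:**
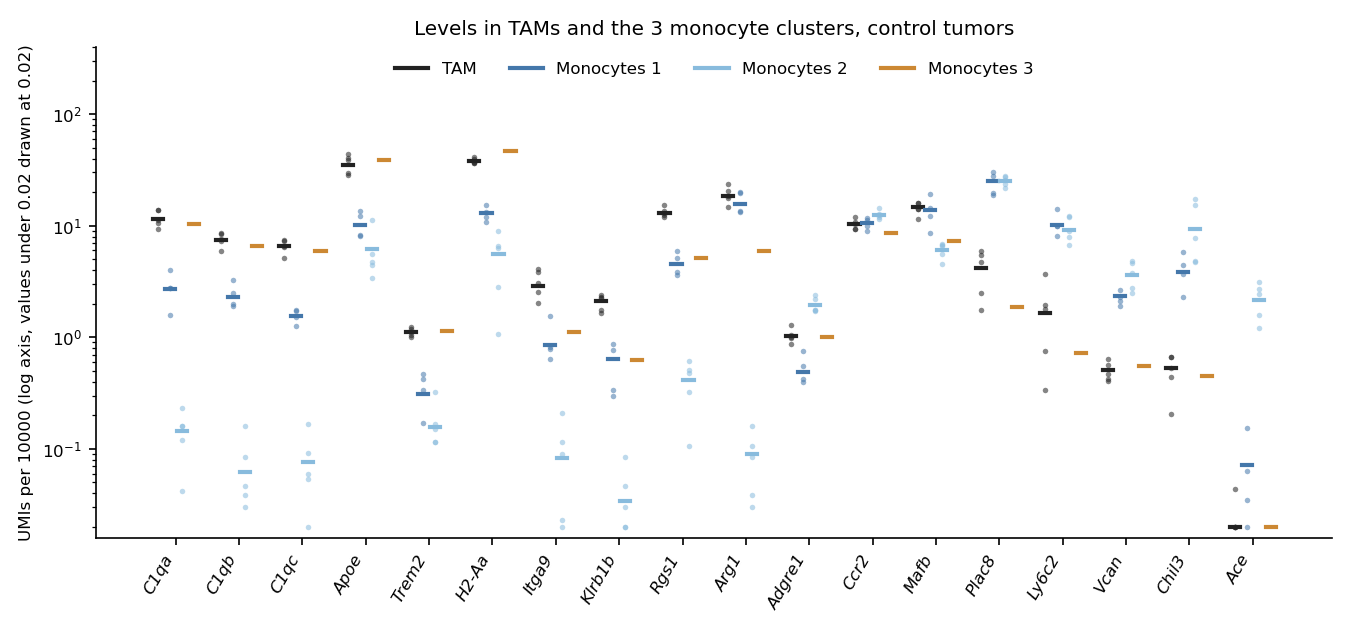
Level of 18 genes in control tumors, in UMIs per 10000 on a log axis, for TAMs and the 3 monocyte clusters. Points are tumors with at least 10 cells of the cluster, and bars are pooled levels. TAMs and Monocytes 3 sit together for C1qa, C1qb, C1qc and Apoe, while Ly6c2, Plac8 and Vcan are highest in Monocytes 1 and 2.

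The genes that separated TAMs most from the mean of the 3 clusters were Klrb1b, Itga9, Rgs1, Nt5e, Tnfrsf9, Slc7a2, Mmp12, Ccrl2, Ifitm1 and Il1r2. Rgs1, a brake on chemokine receptor signaling, was at 13.5, 12.4, 12.1, 13 and 15.2 UMIs per 10000 in TAMs. It was at 3.63 to 5.95 in Monocytes 1, at 0.107 to 0.615 in Monocytes 2 and at 5.09 in pooled Monocytes 3. Mmp12, the macrophage elastase, averaged 8.54 ± 2.67 (SD, n = 5) in TAMs, with 2.31 ± 2.02 (SD, n = 4) in Monocytes 1 and 5.15 in Monocytes 3. Nt5e encodes CD73, an enzyme that makes adenosine, and averaged 2.16 ± 0.272 in TAMs against 0.659 ± 0.224 in Monocytes 1. Ccrl2, an atypical chemokine receptor, separated TAMs from Monocytes 3, with pooled levels of 4.09 and 0.381. Arg1, an arginine-degrading enzyme of alternatively activated macrophages, did so too, at 18.6 against 5.95. In Monocytes 1 its level of 15.6 was close to that of TAMs. Of these genes, Il1r2, a decoy receptor for IL-1, was 1.67 times the Monocytes 1 level and 3.33 times the Monocytes 3 level.

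MHC class II was high in TAMs. Cd74, the invariant chain, was at 78.9 to 91.2 UMIs per 10000 over the 5 control tumors. It was at 26.5 to 35.3 in Monocytes 1, at 4.96 to 23.3 in Monocytes 2 and at 98.3 in Monocytes 3. H2-Ab1, a class II β chain, followed the same order, with 40.7 ± 2.22 (SD, n = 5) in TAMs, 13.4 ± 2.44 (SD, n = 4) in Monocytes 1, 4.49 ± 2.49 (SD, n = 5) in Monocytes 2 and 51.9 in Monocytes 3.

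The genes lowest in TAMs relative to the mean of the 3 monocyte clusters were Ifit2, Slpi, Chil3, Dhx40, Cxcl3, Adgre5, Rsad2, Plac8, Ly6c2 and Slfn5. Chil3, which encodes the chitinase-like protein Ym1, was at 0.529, 0.668, 0.439, 0.666 and 0.204 UMIs per 10000 in control TAMs. It was higher in every tumor of Monocytes 1, at 2.31 to 5.82, and of Monocytes 2, at 4.75 to 17.3. Monocytes 3 was below TAMs for 5 of these genes, with pooled levels of 0.45 for Chil3, 1.87 for Plac8, 0.727 for Ly6c2, 0.0346 for Slpi and 0.104 for Cxcl3 against 0.532, 4.14, 1.66, 0.373 and 0.418 in TAMs. Ifit2 and Rsad2, both induced by interferon, averaged 0.159 ± 0.0748 and 0.836 ± 0.181 in TAMs against 4.93 ± 2.20 and 7.56 ± 1.99 in Monocytes 1. Ccr2, the receptor through which monocytes leave the marrow, averaged 10.4 ± 1.03 in TAMs, close to the 10.5 ± 1.24 of Monocytes 1, and was below the level of Monocytes 2, at 12.7 ± 1.09, in each of the 5 control tumors. Ace and Nr4a1, which mark nonclassical monocytes, were at 2.14 and 12.4 in Monocytes 2 and at 0.0129 and 2.59 in TAMs, as pooled levels.

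Control tumors were similar to each other in most TAM genes. Over the 2066 genes with a mean of at least 1 UMI per 10000, the median coefficient of variation beyond Poisson counting error was 7.29%. It was above 50% for 3 genes, which were Ccl24, Ly6c2 and a transcript known only by a Gm or Rik symbol. Ccl24, a chemokine that attracts eosinophils, stood at 0.643, 3.43, 0.299, 2.43 and 0.245 UMIs per 10000, so tumors 2 and 4 were high and the other 3 low. Ly6c2 was at 1.94, 0.748, 1.78, 3.68 and 0.337. Plac8 ran from 1.77 to 5.98 and Ms4a4c, a further monocyte gene, from 0.664 to 2.51. For all 3 of these monocyte genes, tumor 5 was lowest and tumor 2 next lowest. Ccnd3, a cyclin, had the same 2 lowest tumors. Egln3, a hypoxia-induced oxygen sensor, was at 4.84 in tumor 5 and at 2.09 to 2.66 in the others. The macrophage genes varied less, by 16.9% for C1qa, 19.0% for Apoe, 13.3% for Adgre1 and 3.41% for Trem2.

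**Figure D2:**
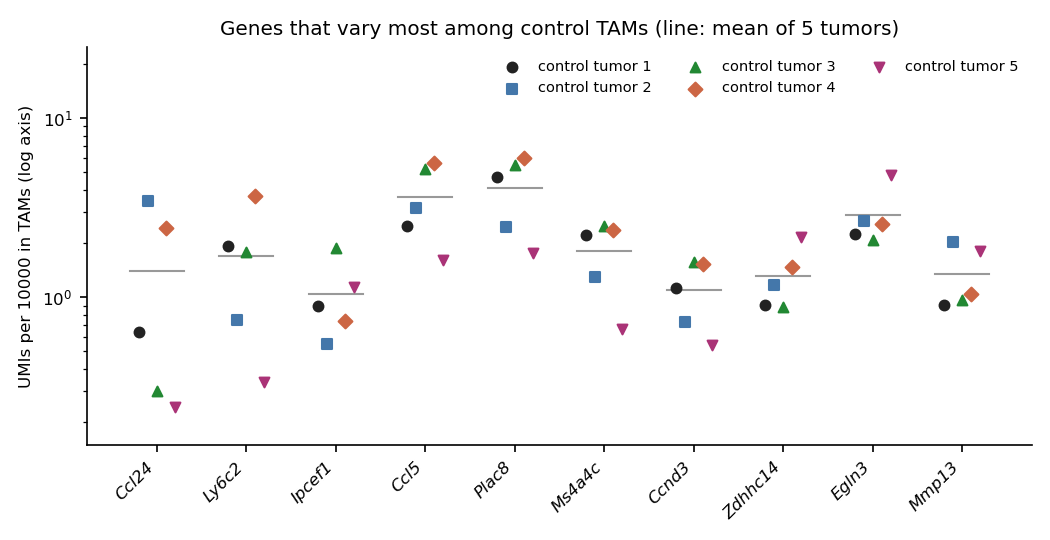
The 10 genes with a mean of at least 1 UMI per 10000 that varied most beyond counting error among control TAMs, on a log axis, with 1 symbol per tumor and a line at the mean of 5 tumors. Tumors 2 and 4 are high in Ccl24, and tumor 5 is lowest in Ly6c2, Plac8 and Ms4a4c.

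The second question was which genes differed between TAMs of GC-treated and control tumors. A gene was called where limma on the log2 level, with tumor weights, and the quasi-likelihood test of edgeR on UMI sums both gave a Benjamini-Hochberg (BH) adjusted p under 0.05 in the same direction. Of 6003 genes tested, 176 were called, with 67 higher after GC (1.12% of genes tested) and 109 lower (1.82%). Levels of the 2 GC tumors and the 5 control tumors did not overlap for any called gene, nor for 37.6% of all genes tested. The median gene changed by -0.12 on the log2 scale in limma and by 0.00 in edgeR, which scales by TMM factors. The split of calls depended on this scale. Of the called genes 38.1% were higher, while edgeR alone called 666 genes, of which 61.7% were higher, and median-of-ratios scaling gave 182 calls, of which 58.2% were higher and 143 were shared. Log2 changes below are from limma, with log2(level + 0.1), which understates the change of low genes.

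The largest rise among the named genes was that of Chil3 (ENSMUSG00000040809, chromosome 3, 106147554 to 106167564, minus strand, GENCODE M21 on GRCm38). After GC its level was 25.3 and 31.3 UMIs per 10000 in tumors 2 and 3, and 40.2 and 21.4 in tumors 4 and 5. No control tumor was above 0.668. The log2 change was 5.53 ± 0.64 (SE), with a BH-adjusted p of 0.00892 by limma and 3.93e-06 by edgeR. Chil3 UMIs were in 25 of 43 GC TAMs and in 112 of 723 control TAMs. In tumors 2 and 3, 1 cell held 28.6% of the Chil3 UMIs. After GC, the C1q-positive cells carried it as well, at 30.8 UMIs per 10000 in the 29 cells with a C1q UMI and at 21.3 in the 14 without one.

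Mmp8, which encodes neutrophil collagenase, was next. Its level was 4.62 and 4.81 in GC tumors 2 and 3 and between 0.0155 and 0.146 in control tumors, a log2 change of 4.91 ± 0.52 (adjusted p = 0.000507 by limma). Tumors 4 and 5 were at 14.3 and 6.82. It was spread over cells, with a UMI in 32 of 43 GC TAMs. Ap1s2, a subunit of the AP-1 clathrin adaptor that sorts membrane proteins, went from 0.439 to 0.585 in controls to 5.57 and 4.36. Its change of 2.97 ± 0.24 had the lowest adjusted p of the 12 largest rises, 6.94e-06 by limma.

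Known GC targets stood among these rises. Fkbp5, a chaperone that dampens the GC receptor, was at 0.265, 0.249, 0.207, 0.310 and 0.327 in control tumors and at 2.23 and 3.16 in GC tumors 2 and 3. Its log2 change was 2.94 ± 0.30 (adjusted p = 4.73e-05 by limma). Klf9, a transcription factor, rose by 2.60 ± 0.41 (adjusted p = 0.00314 by limma), from 0.0715 to 0.232 in controls to 1.33 and 1.77. For both genes tumors 4 and 5 were above every control tumor. Tsc22d3, which encodes the anti-inflammatory protein GILZ, rose by 2.05 ± 0.29 (adjusted p = 0.00127 by limma), from at most 1.03 to 3.98 and 3.57. Dusp1, a phosphatase that switches off MAP kinases, was at 9.72 to 12.5 in controls and at 26.5 and 28.1 after GC. Il1r2 rose by 0.95 ± 0.21 (adjusted p = 0.0216 by limma), from 9.70 to 12.2 in controls to 19.5 and 23.1.

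These 5 were the called genes among 18 tested of the 21 in a list of GC-induced genes, with 0 called lower. The median log2 change of the list was 0.73, or 0.85 above that of all genes tested. The other 13 were not called, and some stood at or under the control level. Sgk1, a kinase, was at 5.68 and 4.84 against a control mean of 6.98 ± 0.934 (SD, n = 5). The metallothioneins Mt1 and Mt2, which bind zinc, were far higher in GC tumors 2 and 3 without passing both tests. Mt1 averaged 4.45 ± 1.45 (SD, n = 5) in controls and was at 17.6 and 26.5 in these tumors, with a log2 change of 2.39 ± 0.59 and adjusted p of 0.0927 by limma and 0.0024 by edgeR. Mt2 averaged 0.427 ± 0.321 and was at 5.83 and 5.85. In GC tumor 4, Mt1 was at 2.13, under every control, and Mt2 at 0.386, within the controls, while tumor 5 was at 13.1 and 1.04. Nr3c1, the receptor gene itself, was at 1.52 and 1.77 against 1.40 ± 0.113 (SD, n = 5), and was not called. Of 8 tested genes of the GC receptor axis only Fkbp5 was called.

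Other named rises were in genes of varied roles. St7, a gene of poorly known function, was at 1.21 to 1.49 in controls and 8.33 and 7.11 after GC, a log2 change of 2.49 ± 0.22. It overlaps annotated transcripts on both strands. Jaml, an adhesion molecule for leukocyte migration across epithelium, rose by 2.21 ± 0.40, and Ms4a8a, a membrane protein of the MS4A family, by 2.15 ± 0.32. Prnp, the prion protein gene, was at 0.0613 to 0.111 in controls and at 1.14 and 1.36 after GC. Hbegf, an EGF receptor ligand, was at 0.758 and 0.696 in tumors 2 and 3 and at 0 in tumors 4 and 5, against 0.0408 to 0.134 in controls. The higher level was therefore not shared by all 4 GC tumors.

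**Figure D3:**
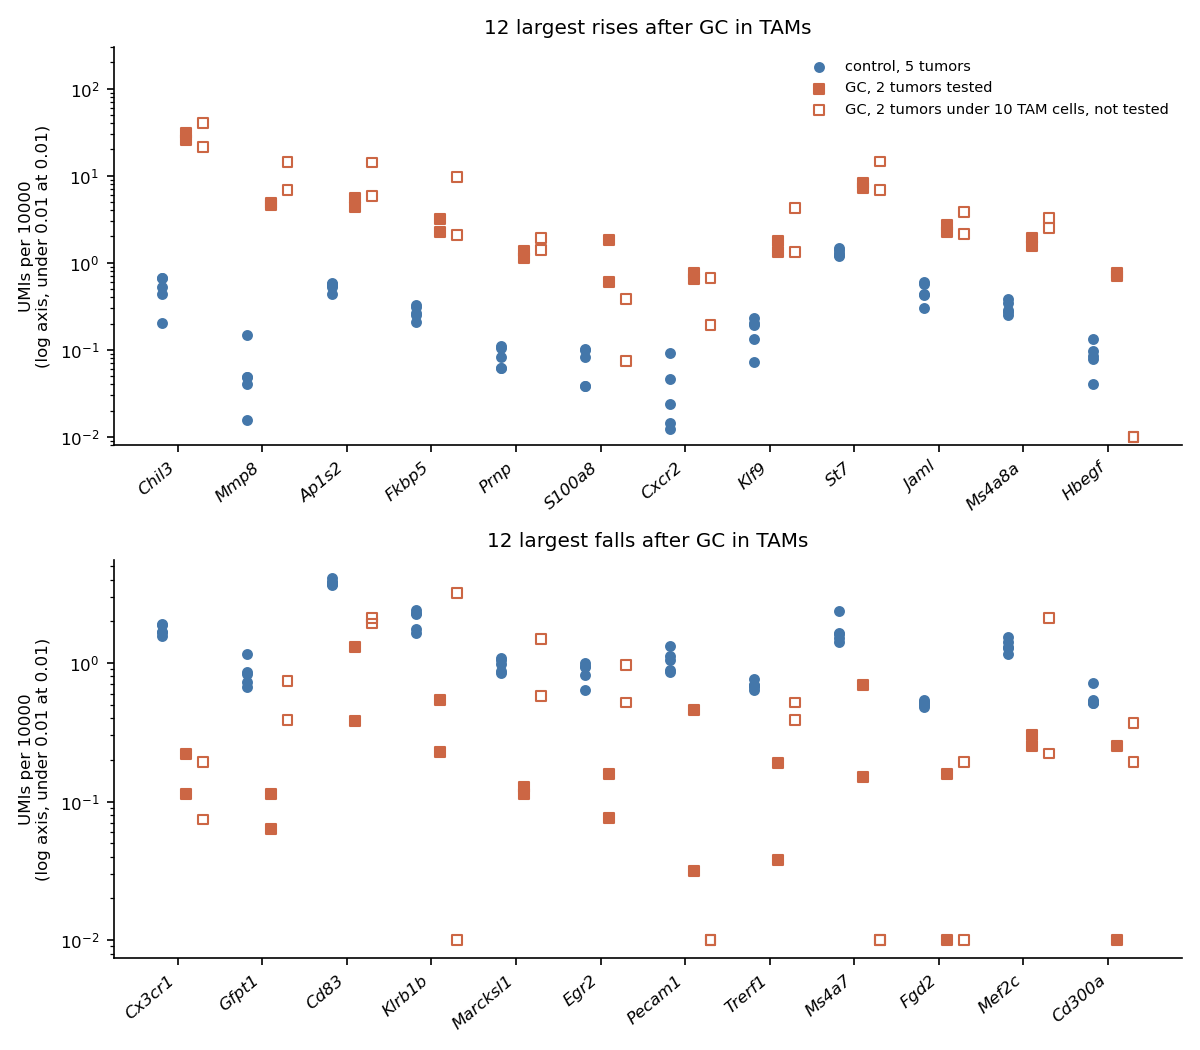
Level of the 12 genes with the largest called rise (upper panel) and the 12 with the largest called fall (lower panel) in TAMs, in UMIs per 10000 on a log axis. Blue points are 5 control tumors, filled orange squares the 2 GC tumors tested and open squares the 2 GC tumors with under 10 TAMs. Open squares for Chil3, Mmp8, Ap1s2 and Fkbp5 lie above all control points, and those of Klrb1b, Marcksl1 and Mef2c scatter to both sides.

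The largest fall by limma among genes of at least 0.5 UMIs per 10000 was that of Cx3cr1. Cx3cr1, the fractalkine receptor (ENSMUSG00000052336, chromosome 9, 119901616 to 120069879, minus strand), was at 1.57, 1.67, 1.68, 1.87 and 1.90 in control tumors. It was at 0.114, 0.221, 0.193 and 0.0742 in GC tumors 2 to 5, below every control. The log2 change was -2.78 ± 0.25, with an adjusted p of 1.01e-05 by limma, and the annotated gene overlaps several others. Cd83, an activation marker that keeps MHC class II on the surface, was at 3.65 to 4.11 in controls and at 0.379 and 1.30 after GC, and fell by 2.27 ± 0.29 on the log2 scale. Tumors 4 and 5, at 2.13 and 1.93, were also under all controls. Egr2, a transcription factor of alternative activation, fell from at least 0.637 to 0.0758 and 0.158, but was at 0.966 in tumor 4.

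Mef2c, another transcription factor, fell by 1.93 ± 0.26, from 1.16 to 1.53 in controls to 0.303 and 0.253, but was at 2.13 in GC tumor 4, above every control. Gfpt1, the first enzyme of hexosamine synthesis, fell by 2.28 ± 0.33 and Trerf1, a transcriptional regulator, by 1.98 ± 0.31. Both remained under every control in tumor 4 and Trerf1 also in tumor 5, where Gfpt1 was at 0.742 against a lowest control value of 0.671. Fgd2, an exchange factor for Cdc42, was at 0.480 to 0.538 in controls and at 0 and 0.158 after GC. Marcksl1, an actin-binding protein, was at 0.854 to 1.08 in controls and at 0.114 and 0.126 in tumors 2 and 3, but at 1.48 in tumor 5. Klrb1b, an inhibitory lectin that set TAMs apart from monocytes, was at 0.227 and 0.537 after GC against 1.64 to 2.41, and at 3.19 in tumor 5. Ms4a7, a macrophage membrane protein, fell by 1.97 ± 0.44 and Pecam1, which encodes the adhesion molecule CD31, by 2.03 ± 0.45. Cd300a, an inhibitory receptor, had the smallest of the 12 falls, 1.80 ± 0.39.

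Genes that mark TAMs against all other leukocytes were examined apart. The 10 genes with the largest fold over all other leukocytes were C1qa, C1qc, C1qb, Apoe, Itga9, Mmp12, Mertk, Ccl24, Fn1 and Ctsl, and 0 of them were called. By edgeR alone C1qb and Mmp12 passed. C1qa was at 11.2 and 11.9 in GC tumors 2 and 3 against 11.8 ± 2.00 (SD, n = 5), a log2 difference of 0.01 ± 0.31. In tumors 4 and 5 it was at 0 and 10.1. Apoe was at 33.8 and 43.9 against 36.2 ± 6.89, and at 11.6 and 41.8 in tumors 4 and 5. Itga9, Mmp12 and Ccl24 had log2 changes of -1.41, -1.83 and -2.49, and the rest of the 10 genes had changes of 0.01 to 0.68. Among 18 tested genes of complement and macrophage identity, 4 were called lower and 0 higher. The lower ones were Cx3cr1, Ms4a7, Lgmn and Mrc1. Lgmn, a lysosomal protease, was at 12.02 to 15.6 in controls and at 9.09 and 6.54 after GC, and Mrc1, the mannose receptor CD206, at 3.50 to 4.78 and at 1.97 and 1.99. For both, tumors 4 and 5 were also under all controls. The list median was -0.24, or 0.12 under that of all genes. Csf1r, the growth factor receptor of macrophages, was at 4.01 and 4.14 against 5.70 ± 0.341 and was not called (adjusted p = 0.198 by limma). Maf, a macrophage transcription factor, was at 0.530 and 0.601 against 1.56 ± 0.324 and passed edgeR only.

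Genes of MHC class II presentation were next examined. Of 12 tested, H2-Aa, H2-Ab1 and Cd74 were called lower and Cd80 higher, and the list median was -0.51, or 0.39 under that of all genes. H2-Ab1 was at 38.7, 40.5, 44.5, 39.9 and 39.99 in controls and at 15.8 and 27.8 in GC tumors 2 and 3, with 27.8 and 28.8 in tumors 4 and 5. Its log2 change was -0.96 ± 0.19 (adjusted p = 0.0141 by limma). Cd74 fell by 0.75 ± 0.17, from 78.9 to 91.2 in controls to 40.7 and 62.1. H2-Aa fell by 0.85 ± 0.20 but was at 40.3 in GC tumor 5, within the control range of 36.5 to 41.5. H2-Aa and Cd74 kept their direction and lost their call under median-of-ratios scaling. Cd80, which costimulates T cells through CD28, rose from 2.89 to 3.33 in controls to 6.10 and 6.04, with 8.12 and 6.23 in tumors 4 and 5. Cd86, with the same role, was at 28.9 and 28.8 against 24.7 ± 3.13 and was not called. Of the 16 tested genes of MHC class I presentation 0 were called, and 1, H2-D1, passed edgeR alone at 15.3 and 13.8 against 11.1 ± 0.757 (SD, n = 5).

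Of the checkpoint genes 1 rose and 1 fell. Havcr2, which encodes TIM-3, was at 1.42 to 2.02 in controls and at 3.07 and 5.25 after GC, and rose by 1.21 ± 0.28 (adjusted p = 0.0319 by limma). Pdcd1lg2, which encodes PD-L2, fell by 1.49 ± 0.35, from 0.310 to 0.458 in controls to 0.0379 and 0.126 after GC. It had 374 UMIs in control tumors and only 5 in GC tumors 2 and 3. Cd274, which encodes PD-L1, was at 3.86 and 5.06 against 4.63 ± 0.587 and was not called. The other 7 of the 10 tested were not called either.

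Cytokine and chemokine genes were also examined. Of 15 chemokines tested, Cxcl2 was called higher and Cxcl14 lower. Of all genes tested, 1.12% were called higher and 1.82% lower. Cxcl2, which attracts neutrophils, was at 6.91 to 11.3 in controls, at 15.5 and 23.8 in GC tumors 2 and 3 and at 2.71 and 7.64 in tumors 4 and 5, so that the 4 GC tumors lay on both sides of the controls. Cxcl14 was at 0.265 to 0.439 in controls, with 295 UMIs, and had 0 UMIs in the GC tumors. Set against 3 UMIs over the 2 GC tumors tested, its level was at least 6.12-fold lower. Cxcl10, which attracts activated T cells, was at 8.33 and 14.6 against 2.14 ± 0.664 and passed edgeR only. The 13 tested genes of inflammatory cytokines and the inflammasome included 0 called genes, with 3 higher by edgeR alone. Il1b was at 40.1 and 62.0 against 42.7 ± 1.12 (SD, n = 5). Of 23 tested interferon-stimulated genes 0 were called higher, with 3 higher by edgeR alone.

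Genes of the matrix and its proteases were mixed. Beside Mmp8, the called genes of 15 tested were Plau and Mmp14, both lower. Plau, the urokinase that activates plasmin, had 390 UMIs in controls and 1 in GC tumors 2 and 3, and was 24.3 times lower with a 95% counting interval of 4.33 to 961. Mmp14, a membrane-bound collagenase, was at 7.08 to 7.88 in controls and at 4.17 and 4.77 after GC. Mmp12 was at 1.52 and 3.00 against 8.54 ± 2.67 and passed edgeR only. Fn1, fibronectin, was at 48.8 and 25.2 against 28.0 ± 3.12.

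In alternative activation, Chil3 was called higher and Egr2 and Mrc1 lower of 10 tested genes, so the list did not move one way. Arg1 was at 16.2 and 21.1 against 19.0 ± 3.28, a log2 difference of 0.02 ± 0.29. In tumors 4 and 5 it was at 0.580 and 6.01, under every control. In hypoxia and glycolysis, Gapdh was called higher and Hif1a lower of 20 tested. Gapdh, a glycolytic enzyme, was at 11.3 to 11.9 in controls and 22.9 and 20.01 after GC, while tumor 4 was at 11.4. Hif1a, the oxygen-regulated transcription factor, was at 10.8 to 11.96 in controls and at 5.87 and 7.65 after GC. By edgeR 10 genes of this list were higher and 1 lower, and the list median was 0.36, or 0.48 above that of all genes. Pkm, a further glycolytic enzyme, was at 10.6 and 12.3 against 7.40 ± 0.275.

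In 4 other lists 0 genes were called. They were lipid handling and cholesterol (17 tested, median log2 change -0.20), phagocytic and scavenger receptors (13, 0.10), iron, heme and metal (11, 0.45) and TGF-beta ligands, activators and response (12, -0.19). By edgeR alone, 3, 1, 5 and 1 genes of these lists passed, among them Pltp, a phospholipid transfer protein, and Smad3, a mediator of TGF-beta, which were lower. Fth1, the ferritin heavy chain, was at 145.2 and 144.7 against 100.003 ± 5.74 (adjusted p = 0.0507 by limma and 0.00113 by edgeR). Axl, a receptor for apoptotic cells, was at 0.114 and 0.980 against 1.79 ± 0.191. Among 18 tested lysosomal genes only Lgmn was called, and the list median was -0.04. Of 11 proliferation genes 2 passed the filter on low values, with 0 called.

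**Figure D4:**
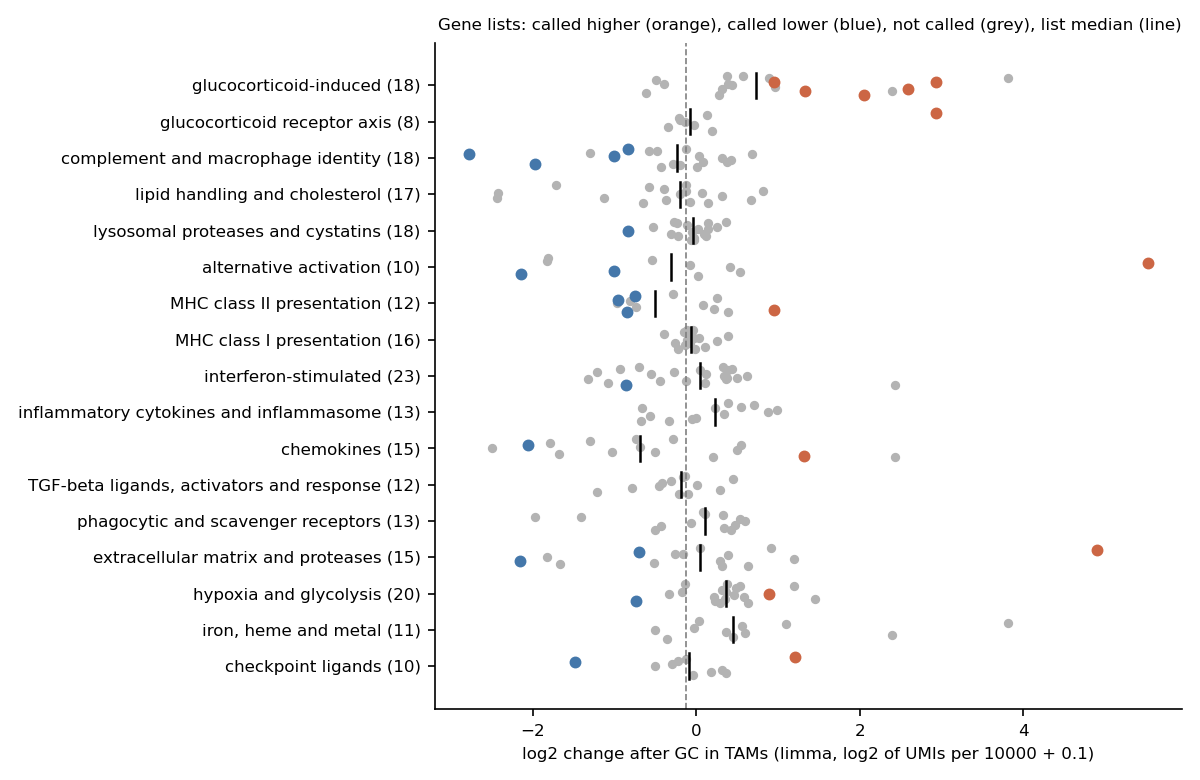
Log2 change after GC of the tested members of 17 gene lists in TAMs, with the number tested in brackets. Called genes are orange (higher) or blue (lower), others grey, the black line is the list median and the dashed line the median of all genes at -0.12. Chil3 and Mmp8 lie farthest to the right, at 5.53 and 4.91.

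Some markers of other cells moved with these results. Of 13 monocyte markers 8 were tested and Vcan was called higher. Vcan, a matrix proteoglycan of classical monocytes, was at 0.408 to 0.633 in controls and at 1.48, 1.23, 15.5 and 0.667 in GC tumors 2 to 5. F13a1, coagulation factor XIII, was at 3.74 to 7.18 in controls and at 28.8 and 25.04 after GC, and passed edgeR only. The summed level of the 13 markers was 23.1 to 34.0 in control tumors and 42.3 to 94.1 in the 4 GC tumors. Ly6c2 was at 8.11, 2.88, 17.2 and 5.56 in GC tumors 2 to 5 and at 0.337 to 3.68 in controls, and it was not called (adjusted p = 0.68 by limma). The part of monocyte transcripts in the differences between groups was not tested.

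Neutrophil genes moved as well. S100a8, a subunit of a calcium-binding alarmin, rose by 2.77 ± 0.45 and was at 0.606 and 1.83 in GC tumors 2 and 3, 0.386 and 0.0742 in tumors 4 and 5 and at most 0.102 in controls. In tumors 2 and 3, 54.1% of its UMIs were in 1 cell. Cxcr2, a receptor for neutrophil-attracting chemokines, rose by 2.64 ± 0.44, to 0.644 and 0.759 from at most 0.0919. The partner S100a9 and the neutrophil gene Retnlg did not follow, with 1 and 0 UMIs in all 43 GC TAMs, while neutrophils of GC tumors held S100a8 at 164 and S100a9 at 175 UMIs per 10000. The summed level of all 12 neutrophil markers was 1.22 to 1.32 in control tumors and 1.89 to 3.86 in GC tumors, of which Csf3r made up at least 0.667 in controls. Of the 12, Retnlg, G0s2, Mmp9, Ly6g, Ngp and Camp were at 0 in all GC TAMs. The part of neutrophil transcripts in the differences was not tested beyond the counts that follow.

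Leaving out TAMs with at least 3 UMIs of T cell markers or at least 3 of S100a8, S100a9, Retnlg, Csf3r and Cxcr2 took away 26 of 43 GC TAMs and 114 of 723 control TAMs, and 18 genes were then called, with 8 higher, in tumors with at least 3 cells left. Chil3 and Mmp8 were not among them, with log2 changes of 4.70 and 4.06, while Fkbp5, Klf9 and Cx3cr1 were. When Csf3r, present in control TAMs, was not counted, 15 of 43 and 14 of 723 cells were removed and 62 genes were called, with 28 higher, in tumors with at least 5 cells. Chil3, Mmp8, Fkbp5, Cx3cr1 and Cd83 were called there, while Cd74 and H2-Ab1 were not in either setting. Markers of T, NK and B cells, eosinophils and red cells were near 0 in TAMs of both groups, at most 0.501, 0.102, 0.0817, 0.0387 and 0 UMIs per 10000 in any tumor for the summed lists. Dendritic cell markers summed to at most 0.206 in controls and to 0.890 in GC tumor 5. Of the 7 melanoma markers only Mitf, which macrophages also express, was tested, at 2.12 and 3.13 against 3.44 to 4.67, and it was not called. Of 7 fibroblast and endothelial markers only Pecam1 was tested. Of the 8 TAM markers Ms4a7 was called lower and the others were not called, and their summed level was 75.0 and 98.4 in GC tumors 2 and 3 against 66.6 to 90.1 in controls, but 16.6 in tumor 4.

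Because free RNA in droplets can give a cell UMIs of genes it does not express, cells were thinned to 3000 UMIs each and compared with CD8 1 T cells of the same channel. This left 696 of 723 control and all 43 GC TAMs, and 471 of 517 control and 50 of 54 GC CD8 1 cells, whose median depths before thinning were 6342 and 9184.5 UMIs. Chil3 was detected in 41.9% of GC TAMs (exact 95% interval 27.0 to 57.9%, 58.1% before thinning), in 7.76% of control TAMs and in 2.00% of GC CD8 1 cells. Mmp8 was detected in 48.8% of GC TAMs (33.3 to 64.5%, 74.4% before thinning), 2.30% of control TAMs and 0 of 50 GC CD8 1 cells. Fkbp5 was in 6.47% of control and 39.5% of GC TAMs (19.5% and 79.1% before thinning) and in 48.0% of GC CD8 1 cells, so T cells give no background for this gene. C1qa was in 53.2% of control and 46.5% of GC TAMs (61.7% and 51.2% before thinning) and in 2.00% of GC CD8 1 cells. F13a1 was in 45.3% of control and 93.0% of GC TAMs (62.2% and 97.7% before thinning), and in 0 of 50 GC CD8 1 cells. Intervals cover counting error only, since cells of a tumor are not replicates.

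**Figure D5:**
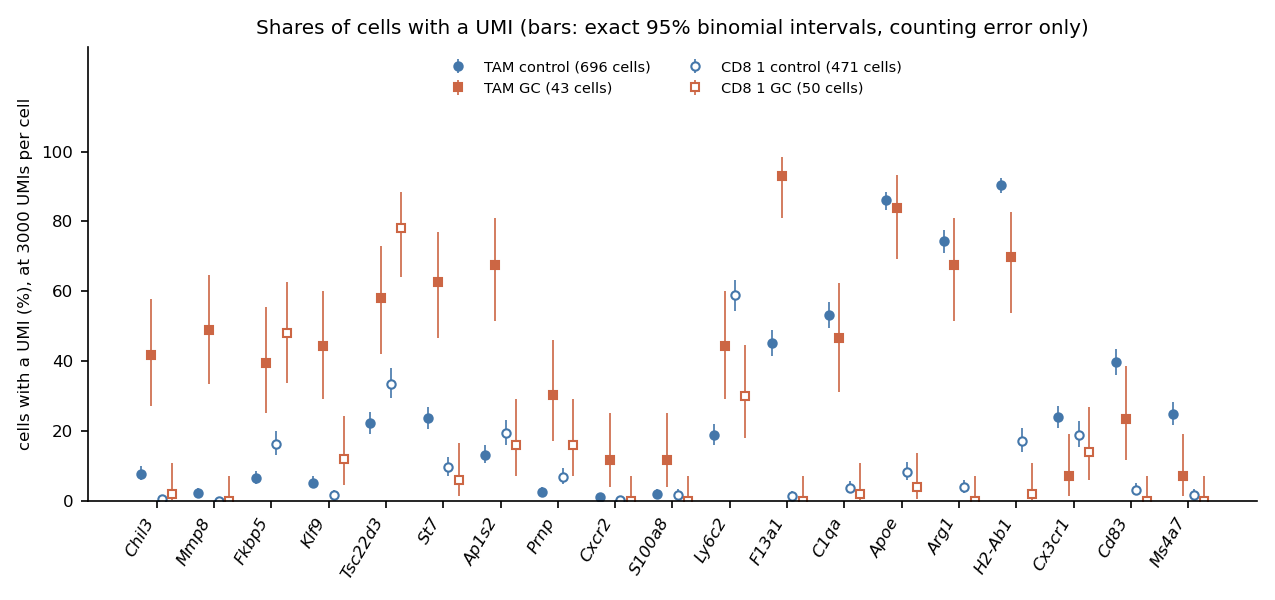
Percentage of cells with at least 1 UMI of each gene after thinning to 3000 UMIs per cell, for TAMs (filled) and CD8 1 T cells (open) of control (blue) and GC-treated (orange) tumors, with exact 95% binomial intervals. Chil3, Mmp8 and F13a1 are frequent in GC TAMs and near 0 in CD8 1 cells, whereas Fkbp5 and Tsc22d3 are also frequent in GC CD8 1 cells.

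The last comparison set the TAM response beside those of other myeloid cells. Chil3 was at 50.2 UMIs per 10000 in the monocytes of GC tumor 3, the only GC tumor with at least 10, against 6.64 ± 4.24 (SD, n = 5) in control monocytes. In neutrophils it was at 62.2 and 69.0 in GC tumors 2 and 3 against 0.0415 ± 0.0639 (SD, n = 5). Mmp8 was at 11.6 in monocytes of GC tumor 3 and at 9.83 and 14.5 in neutrophils, against control means of 0.587 and 2.00. Cd83 was at 0.19 in the monocytes of GC tumor 3 against 4.83 ± 1.44, and Cx3cr1 at 0.0630 against 1.88 ± 0.835. These values share tumors and channels with those of the TAMs. A test of the difference in response between TAMs and neutrophils within tumors called 1 of 6525 genes (0.0153%), namely Scfd2, by limma and edgeR together. Scfd2, which is named for vesicle transport, averaged 0.566 in control and 0.553 in GC TAMs, and 0 in control and 1.22 in GC neutrophils, a difference of -3.62 ± 0.49 on the log2 scale. It was not called when any 1 of the 5 control tumors was left out. At an adjusted p under 0.05, edgeR alone called 112. Chil3 had a difference of -3.34 ± 0.55 on the log2 scale, lower in TAMs, with an adjusted p of 0.142 by limma and 3.04e-09 by edgeR.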

How the data were processed

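CD45+ cells from 20967 melanomas had been sequenced in 1 droplet channel per group. Per the labels and the study's methods, the authors aligned reads with Cell Ranger 7.1.0 to mm10, filtered cells, kept hashtag singlets (doublets within a tumor remain) and clustered cells in Seurat 5.0.3. The deposited table holds natural log values, ln(1 + UMIs per 10000), and the authors' cell table holds UMI counts per cell, the mitochondrial percent, the tumor and the cell type. Whole UMI counts were recovered from 100% of the 10330441 deposited values above 0 (within 0.01), and all 4108 cells summed to their listed total.

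TAMs were chosen by the authors' cell type, and UMIs were summed per tumor. The tumor was the replicate, and replicate numbers only name tumors. Tumors with at least 10 TAMs (5 control, 2 GC) were compared over genes averaging 0.2 UMIs per 10000 or more with limma 3.58.1 (log2(level + 0.1), tumor weights, trended robust moderation) and with edgeR 4.0.16 (quasi-likelihood, TMM) in R 4.3.3. The limma weights were 0.276 for each GC tumor and 0.935 to 2.19 for control tumors. A gene was called at a BH-adjusted p under 0.05 in both. The design was run on comparisons simulated from control TAMs, with the remaining cells of the same tumors kept as controls. These held no difference between channels, so they cannot give the rate of false calls between GC and control channels. Their outcome is not given here. Named genes were the 12 largest called rises and falls with no overlap and a mean of at least 0.5 UMIs per 10000 in the higher group (Gm and Rik symbols left out), the called members of the lists and, for identity and spread, the 10 most extreme. Other genes with values were picked from the lists or added after their values were seen. Members and lists were chosen with earlier results of these data known. DESeq2 1.42.0 and other scalings, filters and left-out tumors were tried as alternatives. Intervals and floors (3 UMIs) cover counting error only. Some results are not reported here.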

Additional observations from a re-analysis of the deposited data

Results flagged for a closer look

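Among 92 named genes whose 5 control tumors were checked, 4 had a tumor set apart from the other 4 by a gap of over 0.71 of the range, a rate that chance gives in about 1 in 20 genes. Ccrl2 was at 3.18 UMIs per 10000 in TAMs of control tumor 2 and at 4.19 to 4.57 in the others. Cd300a was at 0.720 in control tumor 4 and at 0.510 to 0.537 in the others. Egln3 was at 4.84 in control tumor 5 and at 2.09 to 2.66 in the others. Ms4a7 was at 2.36 in control tumor 4 and at 1.42 to 1.65 in the others. Of these genes, Cd300a and Ms4a7 were called lower after GC.

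Scfd2 was the single gene whose response to GC differed between TAMs and neutrophils by limma and edgeR, by -3.62 on the log2 scale. Its mean level was 0 in control and 1.22 in GC neutrophils, and 0.566 in control and 0.553 in GC TAMs. The adjusted p by limma was 0.0493, close to the threshold. With a control neutrophil level of 0, the size of the difference depends on the 0.1 added before the log. The call was lost when any control tumor was left out.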

How the results depend on the processing

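Of 176 genes called in TAMs after GC (38.1% higher), edgeR alone gave 666 (61.7% higher), DESeq2 alone 733 (66.6%), limma without tumor weights 1380, no filter on low values 476, tumors of at least 5 cells 336 and of at least 3 cells 344. Median-of-ratios scaling gave 58.2% higher, the mean of log values 70.4% and a pseudocount of 0.5 gave 46.7%. Among alternatives chosen after seeing the data, leaving out cells with neutrophil or T cell UMIs left 18 calls in tumors of at least 3 cells, where Vcan turned to -0.0353, and 62 when Csf3r was not counted. The cause of these changes was not tested. The planned form in tumors of at least 10 cells could not be run, since no GC tumor kept enough cells. Leaving out 1 tumor gave 155 to 621 calls, of which 38.1% to 62.8% were higher, with 573 without GC tumor 2 and 621 without GC tumor 3, where the lone GC tumor is assumed to vary like the controls.

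For the difference between TAMs and neutrophils, with 1 gene called, limma alone gave 2, edgeR alone 112, a pseudocount of 0.5 gave 4, and leaving out 1 tumor 0 to 33. The identity ratio kept its direction under every alternative tried, at 0.89 to 1.11. This direction is no test, since the clusters were made from the same genes. Monocytes 3 alone stood at 56.6 against 55.3 in TAMs. Of the 43 genes named for their change, 9 lost their call under median-of-ratios scaling (among them Pecam1, Ms4a7, Cd74, H2-Aa, Hif1a, Lgmn, Mmp14 and Mrc1), 6 with the mean of log values, 7 each in tumors of at least 5 or at least 3 cells, and 0 under edgeR or DESeq2 alone. Without cells with neutrophil or T cell UMIs, 31 lost their call, 1 turned and 8 kept it, and 21 lost it when Csf3r was not counted. Leaving out 1 control tumor cost 5 to 8 of them their call. No paired analysis was possible because the replicate numbers name hashtags of different mice and the labels give no tumor numbers. With 33 GC TAMs in 2 tumors, a change that was not called was not detectable at this depth, and is not shown to be absent.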
